A study of Mus musculus with 12 samples.

Results

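The miR-143 and miR-145 cluster was followed across normal skin and skin tumours of mice, in which small RNAs were sequenced. Every row of the deposited table that names an arm of miR-143 or miR-145 was taken, which gave 5 of 1251 rows: mmu-mir-143-3p, mmu-mir-143-5p, mmu-mir-145a-5p (also written mmu-mir-145-5p), mmu-mir-145a-3p and mmu-mir-145b. The prefix is left out from here on. A hairpin precursor yields 2 mature strands, the 5p arm from its 5′ side and the 3p arm from its 3′ side. All 12 samples came from C57Bl6 mice. The groups were cutaneous squamous cell carcinoma (SCC) of TAp63-/- mice (KO SCC, n = 4) and of wild-type mice (WT SCC, n = 2), and dorsal skin of TAp63-/- mice (KO skin, n = 3) and of wild-type mice (WT skin, n = 3). TAp63, a relative of p53, is the form of p63 with a transactivation domain, and the study asked about miRNAs under its control. Tumours came from mice older than 35 weeks that received chronic ultraviolet radiation (UVR) at 2.5 kJ per square metre, 3 times a week. Skin came from untreated mice aged 4 weeks, so tumour, age and UVR cannot be told apart. The labels name no allele design, sex or pooling. They also leave unsaid whether the samples are different mice, so a p-value reflects the spread among samples and some of that may be technical.

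miR-143 and miR-145 are made from 1 primary transcript and are the best known miRNAs of smooth muscle cells, where they favour the contractile state and act on transcription factors such as Klf4, Klf5 and Elk1. They are also abundant in fibroblasts and other mesenchymal cells, and in the intestine they are found in the stroma rather than in the epithelium. In skin, smooth muscle lies in vessel walls and in the muscles that erect hairs. Bulk tissue was sequenced, so fewer cells of a type and less RNA per cell cannot be told apart. The cells that gave these miRNAs were not measured.

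On GRCm38, the build the authors used (mm10), both hairpins lie on the minus strand of chromosome 18. The miR-143 hairpin spans 61649196 to 61649258 and the miR-145a hairpin 61647825 to 61647894, with 1301 bases between them. RefSeq places both within the noncoding gene Carmn (61645878 to 61665538), whereas in GENCODE M21 Carmn ends before either hairpin, at 61649625. The miR-145b hairpin lies 7.37 megabases away, at 69022199 to 69022273 on the same chromosome and strand.

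Values are the authors' log2 values, which share almost the same distribution in every library and have a floor at a linear value of 10. Each value well above the floor is therefore set by the rank of the miRNA within its library, and read depth is unknown. Near the floor, rank alone does not set the value. Rank 371 was at the floor in KO skin replicate 1, while rank 451 was above it in KO SCC replicate 2, at 3.55. Between 370 and 545 miRNAs were above the floor per library. On the first principal component of all tested miRNAs, tumours scored 8.60 to 18.81 and skin libraries -19.82 to -12.34. The tumour closest to skin was WT SCC replicate 2, and the next scored 14.03. Of the 5 rows, 4 were above the floor in all 12 libraries and were among the 544 miRNAs tested. miR-145b was at the floor in all 12.

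The members ranged from among the most abundant miRNAs of the table to barely above its floor. miR-143-3p, the main product of its hairpin, held ranks 2 to 11 of each library and 2.27% to 10.3% of the summed linear values. miR-145a-5p, the arm known as the guide strand, stood at ranks 94 to 146, and miR-145a-3p at ranks 90 to 208. miR-143-5p, the passenger strand, stood at ranks 283 to 451, with linear values of 11.7 to 85.4. On the log2 scale, miR-143-3p exceeded miR-145a-5p by 7.35 ± 0.98 in tumours and 7.32 ± 1.05 in skin (SD, n = 6 each).

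**Figure D1:**
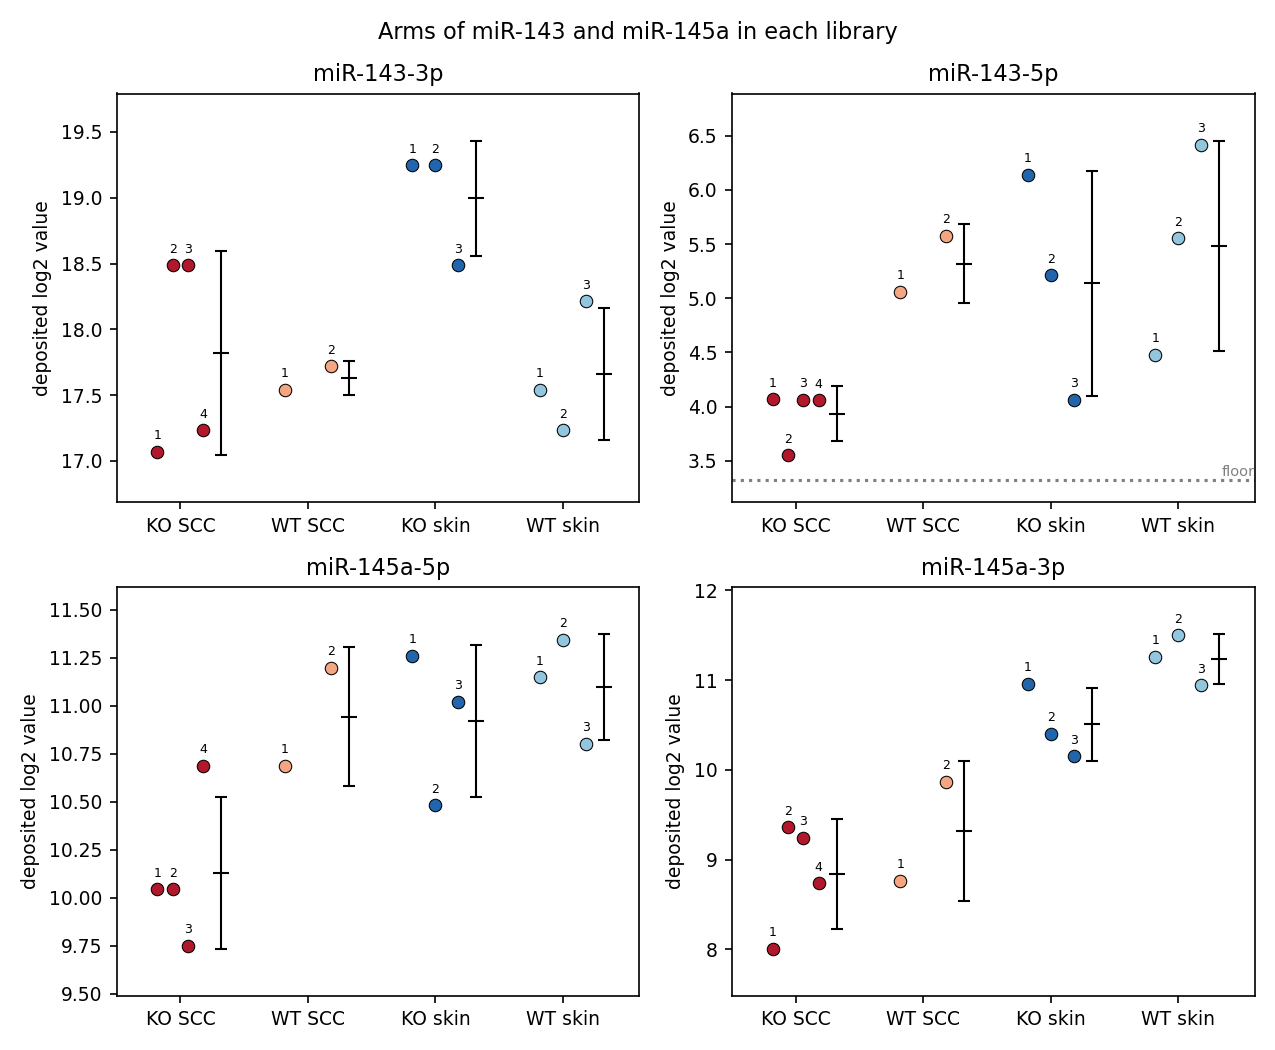
Deposited log2 values of the 4 members above the floor in each library of KO SCC, WT SCC, KO skin and WT skin, with replicate numbers above the points and the mean ± SD at the right of each group; the vertical axes differ between panels and do not start at 0. The 6 tumours lie below the 6 skin libraries for miR-145a-3p (8.01 to 9.87 against 10.15 to 11.50), while tumour and skin libraries overlap for the other 3 arms.

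Tumours were compared with skin first. miR-145a-3p fell in SCC by 1.79 on the log2 scale, or 3.46-fold, and did so in both genotypes. miR-145a-5p, miR-143-3p and miR-143-5p did not pass the test when the genotypes were averaged. In KO mice, miR-143-3p fell as well, but that call depended on single libraries and on the fit.

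miR-145a-3p measured 8.01, 9.36, 9.24 and 8.74 in KO SCC and 8.76 and 9.87 in WT SCC, against 10.96, 10.40 and 10.15 in KO skin and 11.26, 11.50 and 10.94 in WT skin, as log2 values. No tumour reached the lowest skin library, KO skin replicate 3, and the nearest was WT SCC replicate 2. Non-overlapping groups with SCC lower were found for 63 of the 544 tested miRNAs (11.6%), with KO SCC below KO skin for 20.2% and with WT SCC below WT skin for 23.2%. Averaged over genotypes, the difference of SCC minus skin was -1.79 ± 0.30 (log2, SE; adjusted p = 0.000719, limma with Benjamini-Hochberg adjustment). It was 35th from the lowest of the 544 tested miRNAs. The difference was -1.67 ± 0.39 in KO mice (adjusted p = 0.00609) and -1.92 ± 0.46 in WT mice (adjusted p = 0.0151). Without WT SCC replicate 2 the averaged difference was -2.07 (adjusted p = 0.000828). The WT call ended without WT SCC replicate 1 (-1.36, adjusted p = 0.193) or WT skin replicate 2 (-1.78, adjusted p = 0.0568).

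miR-145a-5p, the arm from the other side of the same hairpin, measured 10.04, 10.04, 9.75 and 10.69 in KO SCC and 10.69 and 11.20 in WT SCC, against 11.26, 10.48 and 11.02 in KO skin and 11.15, 11.35 and 10.80 in WT skin. KO SCC replicates 1 to 3 lay below all 6 skin libraries, and the other 3 tumours lay within the skin range. The averaged difference was -0.47 ± 0.23 (log2, SE; adjusted p = 0.127, limma), with a 95% interval of -0.98 to 0.03. In KO mice it was -0.79 ± 0.29 (adjusted p = 0.0584), and in WT mice -0.15 ± 0.35 (adjusted p = 0.834), with a 95% interval of -0.93 to 0.62. The KO difference was called without KO SCC replicate 4 (-0.97, adjusted p = 0.0221) or KO skin replicate 2 (-1.01, adjusted p = 0.0448).

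miR-143-3p measured 17.07, 18.49, 18.49 and 17.23 in KO SCC and 17.54 and 17.72 in WT SCC, against 19.25, 19.25 and 18.49 in KO skin and 17.54, 17.23 and 18.21 in WT skin. KO skin replicates 1 and 2, where it was the second most abundant miRNA, stood above all other libraries, and the KO tumours formed a low pair and a high pair. KO SCC replicates 2 and 3 shared the value of KO skin replicate 3, since each held rank 4. The averaged difference was -0.60 ± 0.31 (log2, SE; adjusted p = 0.146, limma), with a 95% interval of -1.29 to 0.08. In KO mice miR-143-3p fell by 1.18 ± 0.40, or 2.26-fold (adjusted p = 0.0416). In WT mice the difference was -0.03 ± 0.48 (adjusted p = 1), with a 95% interval of -1.08 to 1.02.

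The KO call of miR-143-3p ended with median-ratio scaling (adjusted p = 0.0556), with no filter beyond 1 library above the floor (0.0567), without the trend and robust options of limma (0.0510) and with the KO groups fitted alone (0.0710). It also ended without KO SCC replicate 1 or 4, KO skin replicate 1 or 2, WT skin replicate 1 or either WT SCC library, with adjusted p-values of 0.0505 to 0.133. The difference stayed below 0 in each of these fits, at -1.18 to -0.93.

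miR-143-5p measured 4.07, 3.55, 4.06 and 4.06 in KO SCC and 5.06 and 5.57 in WT SCC, against 6.14, 5.21 and 4.06 in KO skin and 4.48, 5.55 and 6.42 in WT skin. The floor is at 3.32, so the KO tumours lay just above it, and KO skin replicate 3 stood with them. The averaged difference was -0.68 ± 0.43 (log2, SE; adjusted p = 0.235, limma), with a 95% interval of -1.63 to 0.26. In KO mice it was -1.20 ± 0.55 (adjusted p = 0.116), and in WT mice -0.17 ± 0.66 (adjusted p = 0.949). Without KO skin replicate 3, the KO difference was -1.74 (adjusted p = 0.0410). A value this close to the floor can fall no further than 3.32.

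Of the 4 tested members, 1 was called lower and none higher in the averaged comparison, against 21.5% of all tested miRNAs called lower there and 20.4% called higher. In KO mice 2 of 4 were called lower, against 18.2% of all tested called lower and 16.0% called higher. In WT mice 1 of 4 was called lower, against 9.38% of all tested called lower and 8.82% called higher. The median difference over the 4 members was -0.64 averaged, -1.19 in KO mice and -0.16 in WT mice. Over all tested miRNAs these medians were 0.04, 0.05 and 0.00. Median-ratio scaling raised the median of all tested miRNAs by 0.12 in the averaged comparison and by 0.15 in WT mice.

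**Figure D2:**
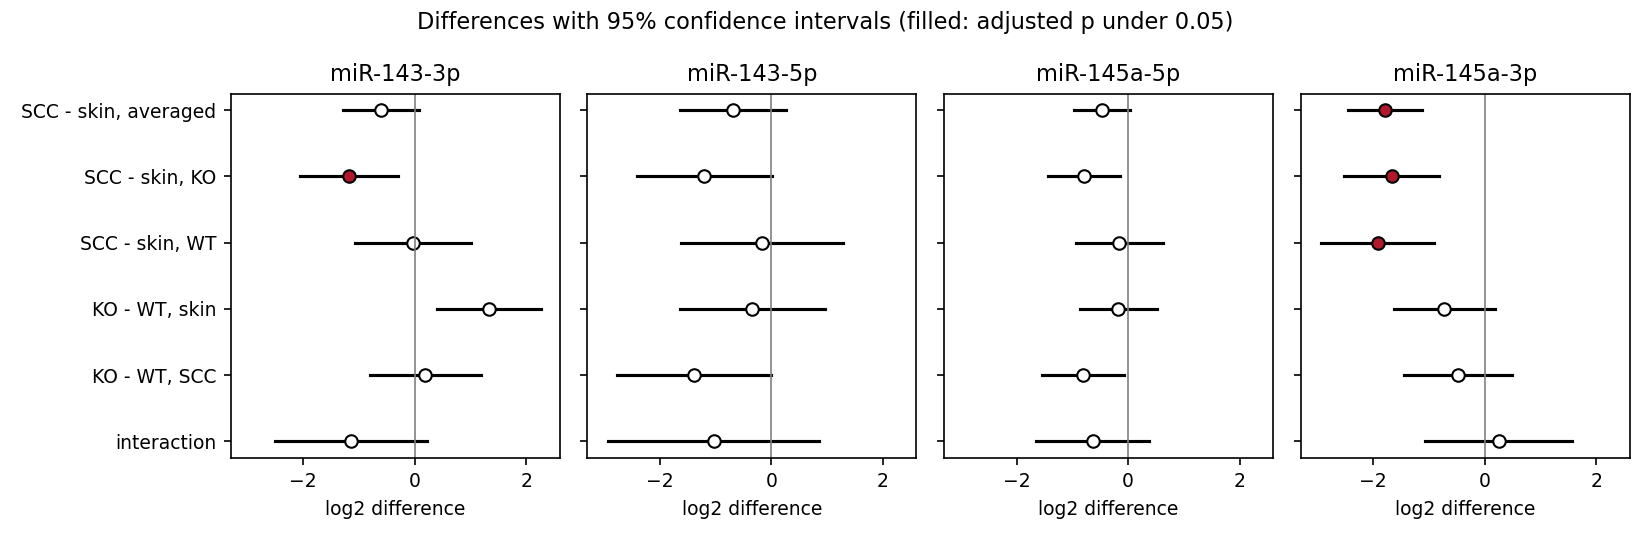
Log2 differences (horizontal axis) of each member in the 6 comparisons, with 95% confidence intervals from limma; filled points have an adjusted p under 0.05. miR-145a-3p is filled in all 3 tumour comparisons, miR-143-3p in KO mice alone (-1.18), and no member in the comparisons of genotypes or in the interaction.

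Whether loss of TAp63 went with the level of the cluster was compared in each tissue. No row of the table measures TAp63, so the genotype labels could not be checked. No member was called in skin or in tumours. For miR-143-3p in skin, all 3 KO libraries lay above all 3 WT libraries, at 18.49 to 19.25 against 17.23 to 18.21. The averages were 19.00 ± 0.44 in KO skin and 17.66 ± 0.50 in WT skin (SD, n = 3 each). The difference of 1.33 ± 0.43 (log2, SE) had an adjusted p of 0.467 in limma and an unadjusted p of 0.00945 in the same fit, with a 95% interval of 0.40 to 2.27. In that comparison limma called none of the 544 miRNAs (0.0%), and 31 (5.7%) had an unadjusted p under 0.05. Groups that do not overlap with KO skin higher were found for 6.8% of tested miRNAs. With weights for library quality, limma called 22 miRNAs, miR-143-3p among them (1.51, adjusted p = 0.0150).

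The other members did not follow miR-143-3p in KO skin. miR-145a-3p averaged 10.51 ± 0.41 in KO skin and 11.23 ± 0.28 in WT skin (SD, n = 3 each), a difference of -0.73 ± 0.41 (SE; adjusted p = 1, limma). The differences of KO minus WT skin were -0.18 ± 0.31 for miR-145a-5p and -0.34 ± 0.59 for miR-143-5p, each with an adjusted p of 1 in limma. miR-143-3p and miR-145a-5p, the guide strands of the 2 hairpins, thus had differences of opposite sign, of which that of miR-145a-5p had a 95% interval of -0.87 to 0.51.

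In tumours, miR-143-5p lay lower in all 4 KO libraries than in both WT libraries, at 3.55 to 4.07 against 5.06 to 5.57. The difference was -1.38 ± 0.63 (log2, SE; adjusted p = 0.538, limma). miR-145a-5p averaged 10.13 ± 0.40 in KO SCC (SD, n = 4) and 10.94 ± 0.36 in WT SCC (SD, n = 2), a difference of -0.81 ± 0.33 (SE; adjusted p = 0.484). For miR-145a-3p the difference was -0.48 ± 0.44 (adjusted p = 0.744), and for miR-143-3p 0.19 ± 0.45 (adjusted p = 0.906). Among all tested miRNAs, 0.184% were called in this comparison, namely miR-20b-5p alone, picked out after its value was seen (-1.36 ± 0.19), and 8.46% had an unadjusted p under 0.05. Non-overlapping groups with KO SCC lower were found for 4.23%.

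The interaction, which is the tumour effect in KO mice minus that in WT mice, was not called for any member, and limma called 0.0% of all tested miRNAs, with 41 of 544 (7.54%) at an unadjusted p under 0.05. It was -1.14 ± 0.62 for miR-143-3p (log2, SE; adjusted p = 0.679), with a 95% interval of -2.51 to 0.22. For miR-145a-3p it was 0.25 ± 0.60 (adjusted p = 0.957), with an interval of -1.07 to 1.57. The call of miR-143-3p in KO mice and its absence in WT mice therefore do not show a difference between the genotypes. The KO skin libraries enter both the tumour effect in KO mice and the comparison of KO with WT skin.

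The arms of miR-145a lay on average closer to each other in skin than in tumours, by a margin that missed the threshold after adjustment. Within a library, miR-145a-3p minus miR-145a-5p was -2.04, -0.68, -0.51 and -1.95 in KO SCC and -1.92 and -1.33 in WT SCC, against -0.30, -0.08 and -0.87 in KO skin and 0.11, 0.15 and 0.14 in WT skin, on the log2 scale. The 3p arm was thus the lower arm in all 6 tumours and all 3 KO skin libraries, and slightly the higher in all 3 WT skin libraries. The number of other hairpins that separate KO from WT skin in this way was not counted. KO SCC replicates 2 and 3 and KO skin replicate 3 are the libraries where tumours and skin overlap. The average was -1.41 ± 0.68 in SCC and -0.14 ± 0.40 in skin (SD, n = 6 each), a difference of -1.27. An exact two-sided permutation test over all 924 ways to place the libraries gave p = 0.00649, and p = 0.0584 after adjustment over the 9 tests of this kind.

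Between genotypes in skin, the difference of the miR-145a arms was -0.42 ± 0.41 in KO and 0.14 ± 0.02 in WT libraries (SD, n = 3 each; exact permutation p = 0.100, two-sided). That is the smallest p which 3 against 3 libraries allow, and it was 0.225 after adjustment. In tumours it was -1.29 ± 0.81 in KO (n = 4) and -1.63 ± 0.42 in WT libraries (SD, n = 2; exact permutation p = 0.600), where 0.0667 is the smallest p possible.

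The arms of miR-143 stood far apart in every library. miR-143-3p exceeded miR-143-5p by 13.36 ± 1.10 in SCC and 13.02 ± 1.12 in skin (SD, n = 6 each; exact permutation p = 0.606, two-sided). In skin it did so by 13.86 ± 0.68 in KO and 12.18 ± 0.77 in WT libraries (SD, n = 3 each; exact permutation p = 0.100, adjusted 0.225), and all 3 KO libraries lay above all 3 WT libraries. In tumours the values were 13.88 ± 0.94 in KO (n = 4) and 12.31 ± 0.24 in WT libraries (SD, n = 2; exact permutation p = 0.133, adjusted 0.240), again without overlap. The smallest p possible there is 0.0667. In skin the gap reuses the miR-143-3p values, and in tumours the miR-143-5p values, that separated the genotypes above. How many other hairpins separate the genotypes in this way was not counted. These differences rest on miR-143-5p values close to the floor.

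The balance of the 2 guide strands, miR-143-3p minus miR-145a-5p, was 7.03, 8.44, 8.74 and 6.54 in KO SCC and 6.85 and 6.52 in WT SCC, against 7.99, 8.77 and 7.47 in KO skin and 6.39, 5.89 and 7.41 in WT skin. Between SCC and skin it differed by 0.04 (exact permutation p = 0.937, two-sided). In skin it averaged 8.07 ± 0.65 in KO and 6.56 ± 0.78 in WT libraries (SD, n = 3 each; exact permutation p = 0.100, adjusted 0.225), and the 2 groups did not overlap. That separation reuses the miR-143-3p values, which already did not overlap in skin, so it adds no separate evidence. How many other pairs of miRNAs separate these groups was not counted.

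**Figure D3:**
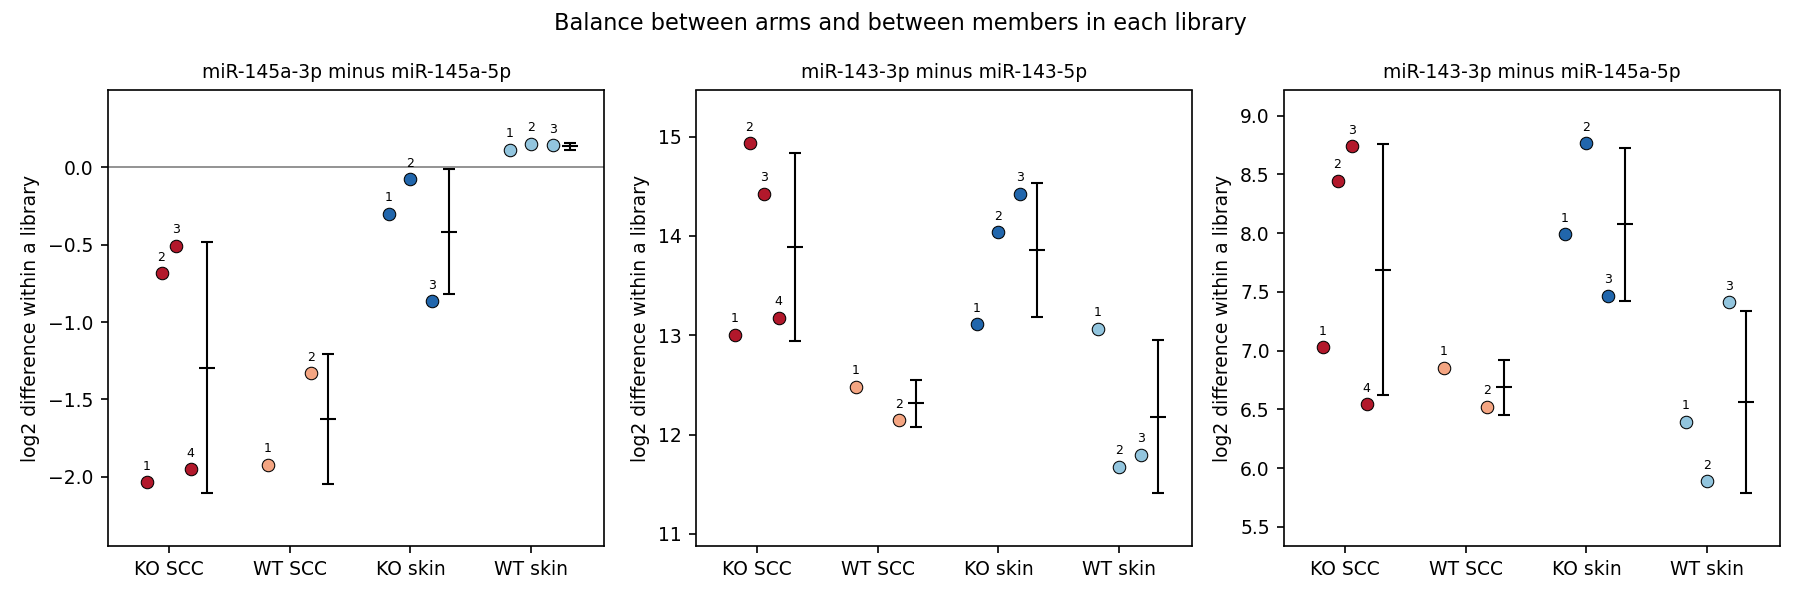
Log2 differences within each library between the arms of miR-145a, between the arms of miR-143, and between miR-143-3p and miR-145a-5p, by group, with replicate numbers and the mean ± SD. Differences between the miR-145a arms lie at -2.04 to -0.51 in the 6 tumours and at -0.87 to 0.15 in the 6 skin libraries.

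Arm balance was then set beside that of other hairpins, a comparison chosen after the values were seen and given without a test. Both arms were above the floor in all 12 libraries for 77 hairpin names. Among these 77, miR-143 had the widest gap between its arms in skin, at 13.02, ahead of miR-10a at -11.84, whose 5p arm was the higher. Hairpins with an arm at the floor in any library were left out, so a wider gap among them would not be seen. The gap of miR-143 rests on miR-143-5p values close to the floor. The arms of miR-145a were the 4th closest to equal in skin. The tumour change of miR-145a averaged over genotypes, -1.32, was the 6th lowest of the 77, whose median was 0.08 with quartiles of -0.50 and 0.78. By size in either direction it was the 15th largest. For miR-143 the same change was 0.08. In 21 of the 77 the tumours and the skin libraries did not overlap, and 9 of these were lower in SCC. Neither miR-145a nor miR-143 was among the 21. Ranks and counts are over names, and some names share values. miR-199a and miR-199b share the value of their 3p arm, and miR-486 and miR-3107 the same average in WT SCC (-10.22). Each of these hairpins was among the 21.

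**Figure D4:**
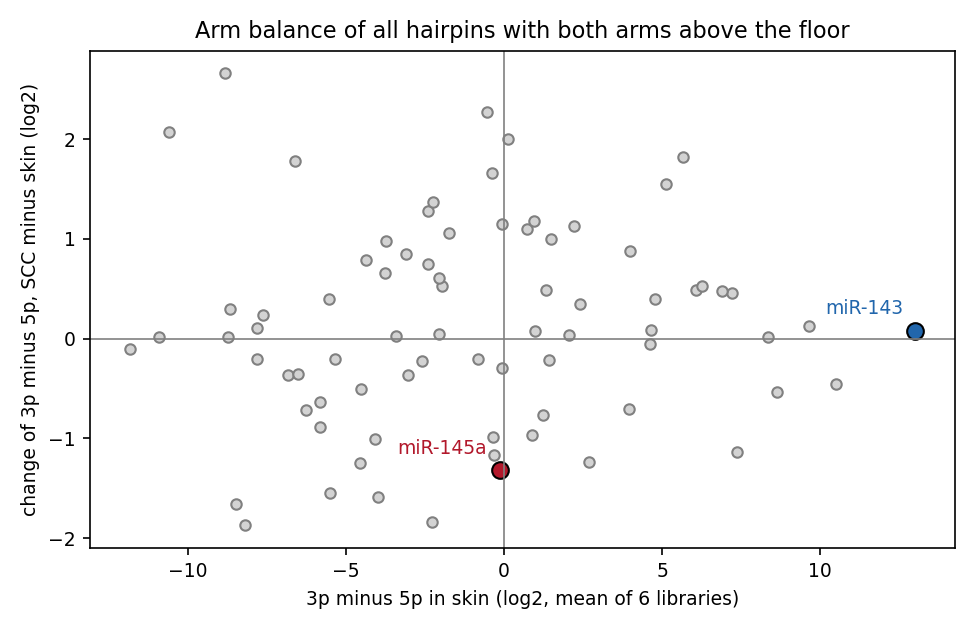
Each point is 1 of 77 hairpin names, with 3p minus 5p in skin (mean of 6 libraries, log2) on the horizontal axis and its change in SCC averaged over genotypes (log2) on the vertical axis. miR-145a sits near equal arms in skin and at -1.32 on the vertical axis, and miR-143 at the right edge with a change of 0.08.

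How the members varied together from library to library was described within groups. Over the deviations of the 12 libraries from their group means, which leave 8 degrees of freedom, Pearson's r was 0.27 between the 2 arms of miR-145a and 0.33 between those of miR-143. It was -0.52 between miR-143-3p and miR-145a-5p and 0.56 between miR-143-3p and miR-145a-3p. These values are descriptions over libraries that share 1 normalization.

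By the same measure, the miRNAs most like each member were different for each. Each list holds the 5 highest r values among the tested miRNAs. Picking the highest of so many over 12 libraries favours high r values by chance, so the lists are descriptions only. The closest to miR-143-3p were miR-27b-5p (r = 0.87), miR-130a-3p (0.86), miR-22-3p (0.85), miR-3473b (0.82) and miR-199b-3p (0.78). The closest to miR-145a-3p were miR-28a-5p and miR-28c, which have the same value in every library (0.90), miR-151-5p (0.83), miR-199b-5p (0.83) and miR-125a-3p (0.82). For miR-145a-5p they were let-7d-3p (0.81), miR-154-5p (0.81), miR-1249-3p (0.77), miR-3068-5p (0.76) and miR-409-5p (0.72). For miR-143-5p they were miR-540-5p (0.84), miR-487b-3p (0.81), miR-30c-1-3p (0.80), miR-485-5p (0.78) and miR-582-3p (0.75). Over the 12 log2 values themselves, which include the gap between skin and tumours, the closest to miR-145a-3p were miR-199b-5p (r = 0.96), miR-497-5p (0.96), miR-409-5p (0.94), miR-195a-5p (0.92) and miR-674-3p (0.92). Those closest to miR-143-3p were miR-381-3p (0.89), miR-410-3p (0.84), miR-127-5p (0.82), miR-540-3p (0.79) and miR-370-3p (0.76). For miR-145a-5p they were miR-211-5p (0.84), miR-92b-3p (0.84), miR-194-5p (0.82), miR-497-5p (0.82) and miR-204-5p (0.82), and for miR-143-5p miR-194-5p (0.83), miR-338-5p (0.77), miR-196a-1-3p (0.76), miR-1943-5p (0.74) and miR-204-5p (0.74). Some of the miRNAs named were at the floor in several libraries. miR-487b-3p, miR-370-3p and miR-196a-1-3p were above it in 7 of 12, miR-485-5p in 8 and miR-540-5p in 9.

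Markers of other cell types moved between tumours and skin too, and their part in the results for miR-143 and miR-145 was not tested. Of 7 fibroblast miRNAs, 3 fell in SCC averaged over genotypes and none rose, with a median of -0.41. The 3, named after their values were seen, were miR-199b-5p (-1.55 ± 0.23), miR-199a-5p (-1.14 ± 0.27) and miR-214-5p (-0.90 ± 0.23), while the abundant miR-199a-3p and miR-199b-3p, which share their values, stood at -0.01 ± 0.20 (log2, SE; adjusted p = 0.963, limma). The third most abundant, miR-29a-3p, stood at 0.20 ± 0.24 (adjusted p = 0.528). The summed linear value of the 7 was 83000 to 134000 in SCC and 90500 to 136000 in skin, and none was at the floor in any group. miR-199a-3p and miR-199b-3p were both counted in the 7, in the median and in the sum. The sum therefore mostly follows their shared value, with a mean log2 value of 15.48 each against 13.50 for miR-29a-3p. Arms of 1 hairpin of a fibroblast miRNA thus differed in whether they passed the test, but there the 5p arm was called, and in miR-145a the 3p arm. Averaged over genotypes, 3p minus 5p changed in SCC by 1.54 for miR-199b, 1.13 for miR-199a and 0.49 for miR-214. For miR-145a it changed by -1.32. The value shared by miR-199a-3p and miR-199b-3p cannot be assigned to 1 hairpin. The difference between the arms of these fibroblast hairpins was not tested.

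Of 7 miRNAs linked to the state of smooth muscle cells, 1 rose and 1 fell in the averaged comparison, with a median of 0.32. The most abundant were miR-21a-5p, known from proliferating smooth muscle and many tumours (2.91 ± 0.29, adjusted p = 2.7e-05, limma), miR-22-3p (0.06 ± 0.20, adjusted p = 0.818) and miR-26a-5p (-0.65 ± 0.17, adjusted p = 0.0109). The summed linear value of the 7 was 1200000 to 1790000 in SCC and 655000 to 946000 in skin, and none was at the floor in any group. miR-21a-5p had the highest mean log2 value of the 7 (18.39) and alone was called higher, so the sum leans on it. Beyond the 3 named, the other 4 of the list were not called.

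Both endothelial arms of miR-126 had a row, and miR-126-5p rose (0.50 ± 0.17, adjusted p = 0.0324, limma), while miR-126-3p stood at 0.27 ± 0.16 (adjusted p = 0.190). Their summed linear value was 59900 to 92500 in SCC and 47400 to 63000 in skin, and neither was at the floor. Of 5 striated muscle miRNAs, 4 fell, with a median of -2.61, among them miR-133a-3p (-2.61 ± 0.41), miR-1a-3p (-4.43 ± 0.44) and miR-133b-3p (-2.59 ± 0.32), and the sum was 4750 to 31500 in SCC and 66500 to 90100 in skin. WT SCC replicate 2, the tumour nearest to skin and the highest tumour for miR-145a-3p, had the highest striated muscle sum of the 6 tumours. It was named after its values were seen, and the other tumours did not keep 1 order in both. KO SCC replicate 4 and WT SCC replicate 1 had the lowest sums (4750 and 5910), with miR-145a-3p at 8.74 and 8.76. KO SCC replicate 1 had the lowest miR-145a-3p (8.01) with a sum of 12000. A link between the 2 was not tested. miR-499-5p of the striated muscle list went the other way. It was at the floor in all skin libraries and stood at 1.20 ± 0.55 in the averaged comparison (adjusted p = 0.110, limma). In KO mice it stood at 1.99 ± 0.71, at the threshold (adjusted p = 0.05 after rounding, limma). It entered the test only through tumours, since no skin library was above the floor, so that call adds no support. Its mean log2 value was low, at 4.05.

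Of 3 keratinocyte miRNAs, miR-205-5p rose (1.55 ± 0.19), and miR-203-3p (-0.60 ± 0.21) and miR-184-3p (-2.66 ± 0.54) fell (log2, SE; adjusted p of 0.000106, 0.0416 and 0.00251, limma). Their summed linear value was 309000 to 567000 in SCC and 267000 to 384000 in skin, so keratinocyte miRNAs were detected in both. The share of epithelial cells was not measured. The red cell list had 3 tested miRNAs, of which miR-144-3p (2.14 ± 0.41) and miR-451a (2.61 ± 0.47) rose, while miR-486-5p stood at -0.69 ± 0.40 (adjusted p = 0.193, limma). Its sum was 17000 to 96900 in SCC and 35000 to 74800 in skin. Of 5 tested leukocyte miRNAs, 2 rose and 1 fell. The most abundant were miR-142-5p (0.54 ± 0.34, adjusted p = 0.240, limma), miR-146a-5p (-2.50 ± 0.25), which fell, and miR-223-3p (1.20 ± 0.33), which rose. The sum of the list was 17300 to 65300 in SCC and 31800 to 39100 in skin. A sixth, miR-155-5p, was at the floor in all 12 libraries.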

How the data were processed

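Small RNA of 12 mouse samples was analysed from 1 table. The authors deposited log2 values for 1251 miRNA rows. Per the submitters' processing notes, mm10 was the build. Aligner, counter and miRBase release: not given in the sources used here. Every column of deposited log2 values held nearly 1 common distribution, as quantile normalization gives; each library sums to between 6065014 and 6065621 on the linear scale, with a floor at 10, where 647 rows stood in all libraries. Depth is unknown, so no counting interval is given. Columns were matched to samples by title, and replicates were numbered in accession order, which pairs nothing.

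The 544 miRNAs that 2 or more libraries held above that floor were tested with limma 3.58.1 (R 4.3.3), with a mean per group, trend and robust variances (8 residual degrees of freedom) and Benjamini-Hochberg adjustment within each comparison, and an adjusted p under 0.05 was called. It was tested on simulated data. Differences within a library were compared by exact permutation in Python 3.11.15, adjusted over 9 tests. The named miRNAs are every row of miR-143 and miR-145, the 5 most correlated with each member by either measure, and from each marker list the 3 most abundant. Named outside this rule, after their values were seen, were miR-199a-5p, miR-214-5p, miR-20b-5p, miR-10a, miR-3107, miR-499-5p and miR-155-5p. Members and lists were chosen with earlier results of these data known. List members were matched by name, and miR-126 and miR-486 under the names the table uses. Alternatives were 2 pseudocounts, 2 filters, 2 normalizations, 2 variance models, the compared groups alone, and leaving out each library. Positions are from RefSeq GRCm38.p6 and GENCODE M21. The RefSeq miRNA sequence table matched 0 of the 5 rows.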

Additional observations from a re-analysis of the deposited data

Results flagged for a closer look

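In KO SCC, the value of miR-143-5p in replicate 2 was 3.55 on the log2 scale, far below the other 3 libraries at 4.06 to 4.07, whose own spread was very small. Among 4 samples, the gap to the nearest library as a share of the whole range exceeded the critical value of Dixon's test at 95%. Of 7 quantities examined this way in KO SCC, this was the 1 that did so, and chance flags about 1 in 20 such groups. The value lies close to the floor of 3.32.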

How the results depend on the processing

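No paired analysis was possible, because skin and tumours came from mice of different age and treatment and the labels pair no samples. Of 226 values under alternative settings for the members and their differences within a library, 218 kept their direction and their side of the threshold, and so did 368 of 396 with 1 library left out. Most of these results were not called in the main fit, so staying uncalled counts as kept. For miR-143-3p in KO mice, 4 of 9 alternative settings and 7 of 12 fits with 1 library left out did not keep the call.

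The call of miR-143-3p in KO mice ended with median-ratio scaling (-1.08) and, at an unchanged -1.18, with no filter beyond 1 library above the floor, without trend and robust options and with the KO groups alone. In WT mice the same miRNA turned to 0.12 with median-ratio scaling and 0.10 with library quality weights, which also turned miR-143-5p in WT mice to 0.038 and called miR-143-3p in KO against WT skin (1.51). The cause was not tested.

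With 1 library left out, miR-143-3p ranged from -1.43 to -0.93 for SCC minus skin in KO mice, from -0.25 to 0.24 in WT mice, and from -0.034 to 0.44 for KO minus WT in SCC. miR-143-5p ranged from -1.74 to -0.70 in KO mice, -0.67 to 0.30 in WT mice, and -0.85 to 0.19 for KO minus WT in skin. miR-145a-3p ranged from -2.47 to -1.36 in WT mice, -1.03 to 0.072 for KO minus WT in SCC and -0.30 to 0.80 for the interaction, while its averaged difference kept its call at -2.07 to -1.52. miR-145a-5p ranged from -1.01 to -0.62 in KO mice, -0.41 to 0.10 in WT mice, and -0.35 to 0.042 for KO minus WT in skin. The difference of miR-143-3p minus miR-145a-5p between SCC and skin ranged from -0.25 to 0.33. Leaving out 1 WT SCC library leaves a lone sample, which is then assumed to vary like the other groups.

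Adjusted p-values of the miR-145a arm difference between SCC and skin lay at 0.0584 to 0.117 over the libraries left out, and permutation within each genotype, added after seeing the data, and the pseudocount of 10 gave 0.0584 to 0.0771. Counts of called miRNAs in WT mice fell to 30, 65 and 61 without WT SCC replicate 1, WT skin replicate 1 and WT skin replicate 2, against 99. Those for KO against WT ranged over alternatives from 0 to 22 in skin, against 0, and from 0 to 2 in SCC, against 1; with 1 library left out they reached 2 in skin (without KO skin replicate 3), 10 in SCC (without WT SCC replicate 2) and, for the interaction, 10 against 0 (without WT SCC replicate 2). Depth is unknown and limits what can be said of miR-143-5p and miR-145b.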
